A study of Mus musculus with 8 samples.

Results

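The CC chemokine receptors described here are 9 genes of the mouse, Ccr1, Ccr2, Ccr4, Ccr6, Ccr7, Ccr8, Ccr9, Ccr10 and Ccrl2. They were picked out by their names among the 47493 genes of the expression table, with earlier results of these data known. All 9 were found and all 9 passed the filter on low values, 1 FPKM on average over the 8 libraries. FPKM relates the fragments of a gene to the length of its transcript and the depth of its library, so levels of different genes can be compared per length. Other receptors of the family were not analysed here.

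Levels were measured by bulk RNA sequencing in CD8+ T cells of 4 female C57BL/6 mice, 6 to 8 weeks old at tumor inoculation. Every mouse received 200000 B16F10 cells (a mouse melanoma line) in the skin on day 0, cyclophosphamide (300 mg/kg, a lymphodepleting drug) on day 3, 2000000 Thy1.1+ Pmel-1 cells (T cells with a transgenic receptor for the melanoma antigen gp100) on day 5, human IL-2 (10000 IU daily for 3 days) from day 5, and weekly anti-CD4 antibody (200 μg, clone GK1.5) from day 10. On day 25, endogenous CD8+ T cells, which lack Thy1.1, were purified on beads from the lymph nodes and spleen of each mouse, and IL-18Rαhi cells were retained on a magnetic column. The retained cells (enriched fraction, n = 4) were compared with the cells that ran through the column (flow-through fraction, n = 4), so both fractions carried the tumor and the whole treatment, and no library came from an untreated mouse.

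Chemokine receptors are multi-pass membrane proteins that couple to inhibitory G proteins and steer cells along gradients of chemokines. The set that a T cell carries is a main part of what decides where it goes. Ccr7 brings naive and central memory T cells into lymph nodes, Ccr9 serves the small intestine, Ccr4, Ccr8 and Ccr10 are known from T cells of the skin, Ccr6 from mucosal and type 17 cells, and Ccr1 and Ccr2 from cells recruited to inflamed tissue. Ccrl2 is an atypical member that binds the attractant chemerin and does not signal through G proteins.

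The fractions were purified from the same mice but were not pure in their RNA. Il18r1, which encodes the selected IL-18Rα chain, lay between 22.2 and 37.2 FPKM in flow-through libraries, against 107 to 116 FPKM in the enriched libraries (log2 fold change 1.85 with an SE of 0.15, limma adjusted p = 0.00029). Markers of CD8 T cells were high throughout, with Cd8a between 179 and 345 FPKM in the flow-through and between 361 and 385 FPKM in the enriched libraries. Flow-through replicate 1 stood apart: its 10 CD8 T-cell markers summed to 1426 FPKM, the lowest of the 8 libraries, its 7 erythroid markers summed to 2663 FPKM, the highest, and it held the lowest flow-through value of 8 of the 9 receptors. With that library left out, the counts of receptors called higher and lower were the same as with it. The depth was estimated only from the smallest values, at 14400000 to 17500000 fragments per library. Over the genes that passed the filter, log2 values correlated at 0.943 to 0.987 within the fractions and at 0.888 to 0.967 between them.

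The receptors share one short stretch of coding sequence that marks them as a family, and it is shown here for all 9 because it separates the signaling receptors from Ccrl2. It lies at the inner end of the third membrane helix, where the motif named DRYLAIV contacts the G protein. The 45 bases below were read 5′ to 3′ from the coding strand of the GENCODE M21 transcripts (mm10), and the capitals mark the 21 bases that encode the motif.
Ccr1, chr9:123964072-123964116 (- strand): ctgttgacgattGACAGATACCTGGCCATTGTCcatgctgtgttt
Ccr2, chr9:124106120-124106164 (+ strand): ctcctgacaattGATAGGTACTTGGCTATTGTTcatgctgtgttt
Ccr4, chr9:114492564-114492608 (- strand): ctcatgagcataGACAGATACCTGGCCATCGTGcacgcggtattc
Ccr8, chr9:120094190-120094234 (+ strand): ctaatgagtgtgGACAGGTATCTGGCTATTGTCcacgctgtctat
Ccr6, chr17:8256352-8256396 (+ strand): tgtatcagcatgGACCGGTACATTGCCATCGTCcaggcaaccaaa
Ccr7, chr11:99145606-99145650 (- strand): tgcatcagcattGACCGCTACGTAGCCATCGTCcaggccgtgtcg
Ccr9, chr9:123779669-123779713 (+ strand): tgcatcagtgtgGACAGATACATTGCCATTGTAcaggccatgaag
Ccr10, chr11:101174262-101174306 (- strand): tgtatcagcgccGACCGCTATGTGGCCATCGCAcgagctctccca
Ccrl2, chr9:111056003-111056047 (- strand): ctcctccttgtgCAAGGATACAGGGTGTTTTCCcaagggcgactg
Translated, Ccr1, Ccr2, Ccr4 and Ccr8 matched the motif at 7 of 7 positions, Ccr6, Ccr7 and Ccr9 at 6, and Ccr10 at 5. Ccrl2 matched at 1 position. Ccr1 and Ccr2 were the closest pair over the whole reading frame, with 54.9% identity, and Ccr6 and Ccrl2 the most distant, with 23.7%. No stretch of 75 bases was shared between the transcripts of any 2 of the 9 genes. Of such stretches, 19.35% in Ccr9, 1.16% in Ccr2 and 0.40% in Ccr4 also occurred in transcripts of genes outside the 9, or in their reverse complement.

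Of the 9 receptors, 6 were higher in the enriched fraction (Ccr1, Ccr2, Ccr4, Ccr6, Ccr8 and Ccr10), 2 were lower (Ccr7 and Ccr9), and Ccrl2 was not called (limma, threshold 0.05 on the adjusted p). Among the 12166 genes tested, 14.1% were called higher and 13.7% lower, or 27.8% in either direction. The receptors had a median log2 fold change of 1.31, and the median over all genes tested was -0.02. In 7 of the 9, 5 higher and 2 lower, the libraries of the fractions did not overlap, which was so for 32.3% of all genes tested (16.4% higher and 15.9% lower). Within mice, 7 receptors were higher in the enriched library of every mouse and 2 were lower in every mouse, where 29.2% and 30.6% of all genes behaved so. The enriched mean of 5 receptors was at least 3 times the flow-through mean, which 2.05% of all genes reached, and Ccr9 alone among the 9 was lower by a factor of at least 3, as were 1.38% of all genes.

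**Figure D1:**
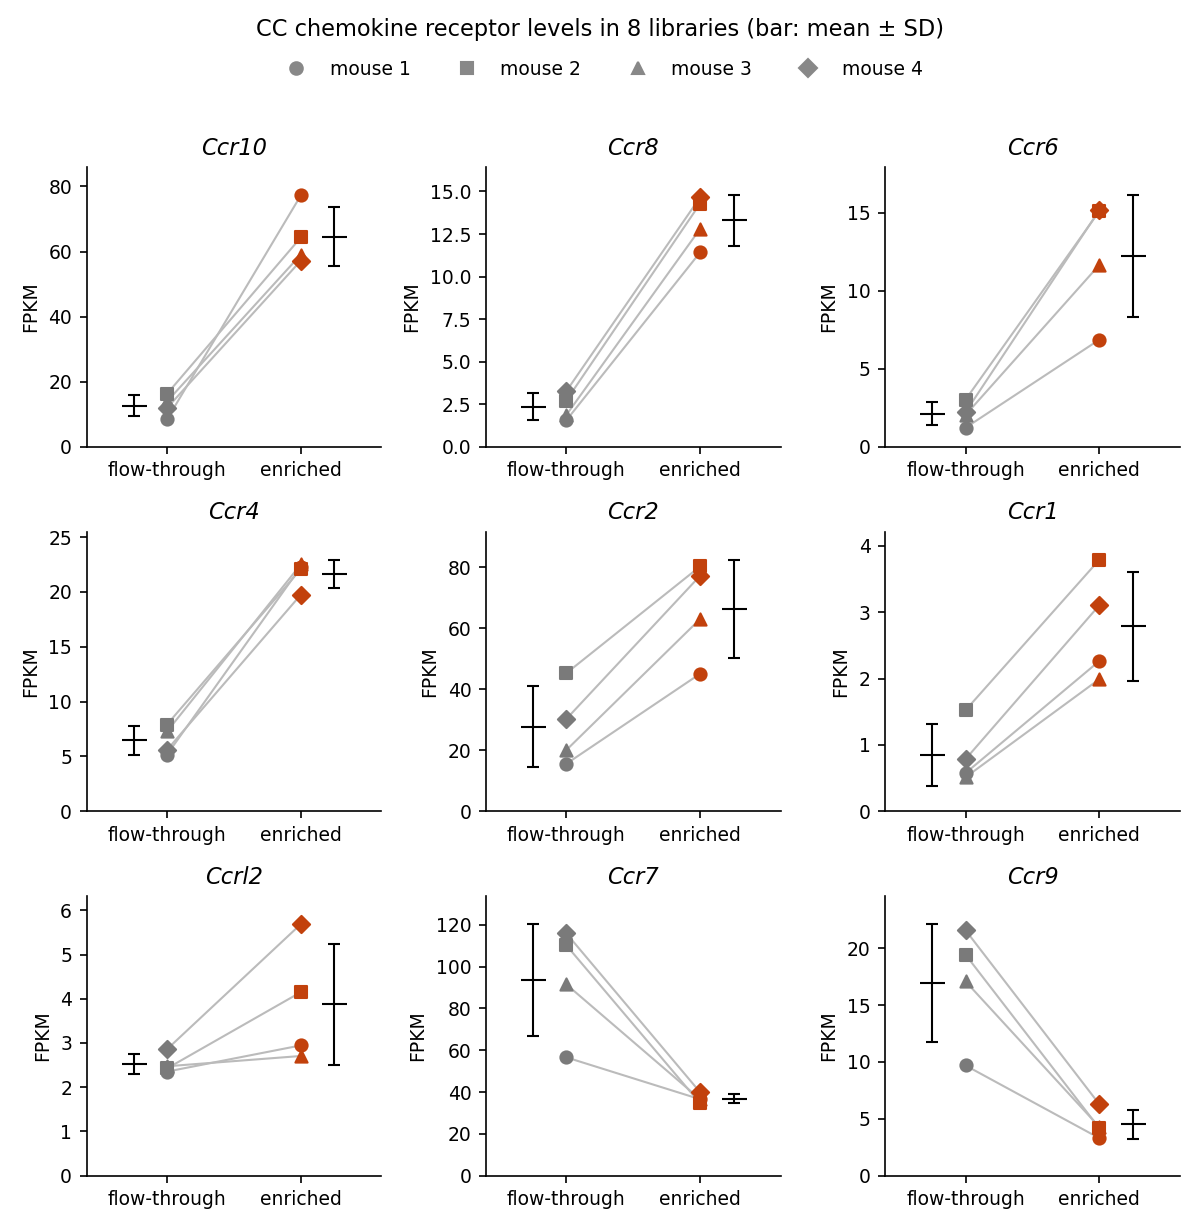
Level (FPKM, linear axis from 0) of each receptor in the flow-through (grey) and enriched (orange) library of mice 1 to 4, joined by a line for each mouse, with the mean and SD of 4 libraries beside the points. Lines run upward in every mouse for Ccr10, Ccr8, Ccr6, Ccr4, Ccr2, Ccr1 and Ccrl2 and downward in every mouse for Ccr7 and Ccr9.

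On the scale of log2(FPKM + 1), on which the fold changes here are given, the largest rise was that of Ccr10, the receptor for Ccl27 and Ccl28, which are made by epithelia of the skin and mucosa. It was at 8.45, 16.3, 13.9 and 11.9 FPKM in flow-through replicates 1 to 4 and at 77.3, 64.4, 59.1 and 57.2 FPKM in the enriched replicates. Every enriched library lay above every flow-through library, and mouse 1 held both the lowest flow-through and the highest enriched value. The mean went from 12.7 ± 3.32 (SD, n = 4) to 64.5 ± 9.05 FPKM, 5.10 times the flow-through level (below the ratios of the less abundant Ccr6 and Ccr8, 5.74 and 5.65), with a log2 fold change of 2.29 (its SE was 0.18, and the limma adjusted p = 0.00029). Within mice the ratio ran from 3.95 to 9.15. Ccr10 (chr11:101172997-101175443, - strand) lies within the span of Cntnap1, a gene on the opposite strand, with 0 bases of exon in common. Cntnap1 was at 3.09 ± 0.584 and 11.9 ± 0.221 FPKM (log2 fold change 1.66, limma adjusted p = 2e-04), and Plekhh3, which lies 1646 bases away, at 1.30 ± 0.444 and 6.86 ± 1.18 FPKM (1.78, limma adjusted p = 0.00056). The kit was stranded, but the quantification was run at default options apart from its read and bias corrections and was not stated to use the strand, so fragments of Ccr10 and of unspliced Cntnap1 cannot be told apart.

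Ccr10 is also a receptor of plasma cells. None of the 5 plasma-cell markers was called, though all 5 were with the mouse as a block, where 22.2% of all genes tested were called higher and 22.7% lower. The summed level of the 5 ran from 293 to 1236 FPKM in the flow-through and from 532 to 1476 FPKM in the enriched libraries. None of the 5 was at 0 in every library. The part of these cells in the Ccr10 level was not tested. In bulk RNA, more cells of a type and more RNA per cell cannot be told apart, here and for every receptor below.

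Ccr4 and Ccr8, receptors of skin-homing and of regulatory T cells, rose together. Ccr4, which binds Ccl17 and Ccl22, was at 5.17, 7.91, 7.28 and 5.60 FPKM in the flow-through and at 22.3, 22.1, 22.5 and 19.8 FPKM in the enriched libraries. The fractions were far apart and each was tight, 6.49 ± 1.31 against 21.7 ± 1.28 FPKM, or 3.34 times (log2 fold change 1.61 with an SE of 0.13, limma adjusted p = 0.00029). For Ccr8, the receptor of Ccl1, the flow-through values were 1.55, 2.72, 1.87 and 3.26 FPKM and the enriched values 11.4, 14.3, 12.8 and 14.7 FPKM. No value of one fraction reached the range of the other, and the mean rose 5.65 times, from 2.35 ± 0.783 to 13.3 ± 1.48 FPKM (log2 fold change 2.12 with an SE of 0.17, limma adjusted p = 0.00029). Within mice the ratio was 2.79 to 4.31 for Ccr4 and 4.49 to 7.35 for Ccr8.

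Of the 7 markers of CD4 and regulatory T cells, 6 were called higher beside Ccr4 and Ccr8. Their summed level was 35.1 to 74.6 FPKM in the flow-through against 92.5 to 163 FPKM in the enriched libraries, and none was at 0 in every library. The largest part of these sums was Tnfrsf18, at 17.2 to 36.2 FPKM in the flow-through and 38.5 to 51.4 FPKM in the enriched libraries. Foxp3, the lineage factor of regulatory T cells, was at 1.12, 2.71, 2.23 and 4.40 FPKM in the flow-through and at 5.86, 11.7, 9.98 and 19.0 FPKM in the enriched libraries. Cd4 itself was at 0.662 ± 0.423 and 3.93 ± 2.73 FPKM. Foxp3 and Cd4 were highest in enriched replicate 4, the library in which Ccr4 was lowest of the enriched libraries and Ccr8 was highest. The part of CD4 T cells in these receptor levels was not tested.

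Ccr6, the receptor for Ccl20 on type 17 T cells, B cells and mucosal T cells, was at 1.22, 3.02, 2.04 and 2.22 FPKM in the flow-through libraries and at 6.87, 15.1, 11.7 and 15.2 FPKM in the enriched libraries. The lowest enriched library, of mouse 1, was still above the highest flow-through library, that of mouse 2. Its mean rose 5.74 times, from 2.13 ± 0.738 to 12.2 ± 3.92 FPKM (log2 fold change 2.05 with an SE of 0.26, limma adjusted p = 0.0017), and the within-mouse ratio was the least spread among the 3 largest rises, 5.00 to 6.83. Among the 7 tested markers of γδ and type 17 T cells 5 were called higher, with summed levels of all 8 from 32.8 to 62.4 FPKM in the flow-through against 57.2 to 109.5 FPKM in the enriched libraries. The B-cell markers had 1 call in 6 tested, Cd22, and sums of 25.4 to 66.3 and 41.9 to 86.9 FPKM. No marker of either list was at 0 in every library, and their part in the Ccr6 level was not tested. The study chose Ccr6, and Blk of the γδ and type 17 list, from these same libraries as markers of innate-like T cells. Their rises are thus not independent evidence of their direction.

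Ccr2 and Ccr1, the receptors for the inflammatory chemokines of the Ccl2 and Ccl3 groups, were higher by smaller factors. Ccr2 was the most abundant receptor of the enriched fraction. Its flow-through values were 15.5, 45.2, 20.02 and 30.2 FPKM and its enriched values 45.1, 80.2, 63.0 and 77.2 FPKM. The flow-through library of mouse 2 was as high as the enriched library of mouse 1, so the fractions overlapped, yet each enriched library was 1.77 to 3.15 times the flow-through library of its own mouse. Means were 27.7 ± 13.2 and 66.4 ± 16.1 FPKM (log2 fold change 1.31 with an SE of 0.32, limma adjusted p = 0.019, or 0.00068 with the mouse as a block). Without the block the call of Ccr2 was lost when flow-through replicate 3, enriched replicate 2 or enriched replicate 4 was left out (log2 fold change 1.19, 1.20 and 1.22, limma adjusted p = 0.056 each time).

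Ccr1, at the other end of the scale, was at 0.575, 1.52, 0.512 and 0.785 FPKM in the flow-through and at 2.26, 3.79, 1.99 and 3.11 FPKM in the enriched libraries. The ranges did not overlap, and the lowest value of each fraction came from mouse 3 and the highest from mouse 2. The mean rose 3.29 times, from 0.848 ± 0.464 to 2.79 ± 0.820 FPKM (log2 fold change 1.04 with an SE of 0.21, limma adjusted p = 0.0095). At an estimated 22 to 181 fragments per library, it was the least sampled receptor, and the added 1 FPKM of the log2 scale understates its change. Monocytes and macrophages carry both receptors. Of 7 tested markers of these cells 3 were higher (Lyz2, Cd68 and Adgre1), or 6 with the mouse as a block. The 8 markers summed to 447 to 1139 FPKM in the flow-through against 1011 to 1780 FPKM in the enriched libraries. None of the 8 markers was at 0 in every library, and the part of monocytes and macrophages in Ccr1 and Ccr2 was not tested. The NK-cell markers had 4 calls higher among 5, with sums of 21.4 to 43.8 and 85.8 to 181 FPKM. The study named Ncr1 and Klrb1c of that list as higher in these same libraries, so their calls are not independent evidence.

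Ccr7, the lymph-node receptor for Ccl19 and Ccl21, fell. It was at 56.6, 110.25, 91.5 and 116 FPKM in the flow-through libraries and at 36.5, 34.6, 36.5 and 39.9 FPKM in the enriched libraries. Flow-through values were widely spread, with mouse 1 lowest, and the enriched values lay close together below all of them. The mean dropped from 93.6 ± 26.8 to 36.9 ± 2.21 FPKM, 0.394 times the flow-through level, and the log2 fold change was -1.27 (its SE was 0.21, and the limma adjusted p = 0.004). Within mice the ratio was 0.646 in mouse 1 and between 0.313 and 0.399 in the other 3. Conventional dendritic cells express Ccr7 when mature, and 6 of their 7 markers were called higher. The sums were 48.5 to 135 FPKM in the flow-through against 187 to 518 FPKM in the enriched libraries, none of the 7 being at 0 in every library. The part of these cells in the Ccr7 level was not tested.

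Ccr9, the gut receptor for Ccl25, had the steepest fall. It was at 9.69, 19.4, 17.1 and 21.6 FPKM in the flow-through and at 3.29, 4.16, 4.28 and 6.27 FPKM in the enriched libraries. The ranges did not overlap, and mouse 1 was lowest and mouse 4 highest in both fractions. Means were 16.9 ± 5.17 and 4.50 ± 1.26 FPKM, a ratio of 0.266 (log2 fold change -1.68 with an SE of 0.25, limma adjusted p = 0.0029), and the within-mouse ratio was 0.214 to 0.340. Ccr9 is also a marker of plasmacytoid dendritic cells, whose 5 markers summed to 18.7 to 23.7 FPKM in the flow-through against 17.3 to 23.7 FPKM in the enriched libraries, with 1 of 4 tested, Siglech, called higher, and none at 0 in every library. The part of these cells in the Ccr9 level was not tested. Exon bases of Ccr9 are shared with AC165425.1 (1932 bases) and Slc6a20a (22 bases) on the opposite strand and with Gm17200 (269 bases) on its own, and fragments from these bases cannot be told apart without use of the strand or, for Gm17200, with it. AC165425.1 reached at most 1.03 FPKM, Slc6a20a 1.80 FPKM and Gm17200 0.0906 FPKM in any library. Lztfl1, which overlaps Ccr9 on the opposite strand outside its exons, was lower as well (log2 fold change -0.50, limma adjusted p = 0.038). So was Gm10052, a pseudogene placed likewise (log2 fold change -0.66, limma adjusted p = 0.01). Fyco1, which lies 5170 bases beyond Ccr9, was at 6.75 and 6.60 FPKM (log2 fold change -0.02, limma adjusted p = 0.89).

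The atypical receptor Ccrl2 was at 2.35, 2.42, 2.47 and 2.86 FPKM in the flow-through and at 2.95, 4.15, 2.71 and 5.69 FPKM in the enriched libraries. It was higher in the enriched library of 4 of 4 mice, by 1.09 to 1.99 times, but enriched replicate 3 fell within the flow-through range. Means were 2.53 ± 0.226 and 3.87 ± 1.37 FPKM (log2 fold change 0.43, 95% interval 0.00 to 0.85, limma adjusted p = 0.12), and with the mouse as a block the adjusted p was 0.044. The paired fit passed the threshold and the unpaired fit did not.

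**Figure D2:**
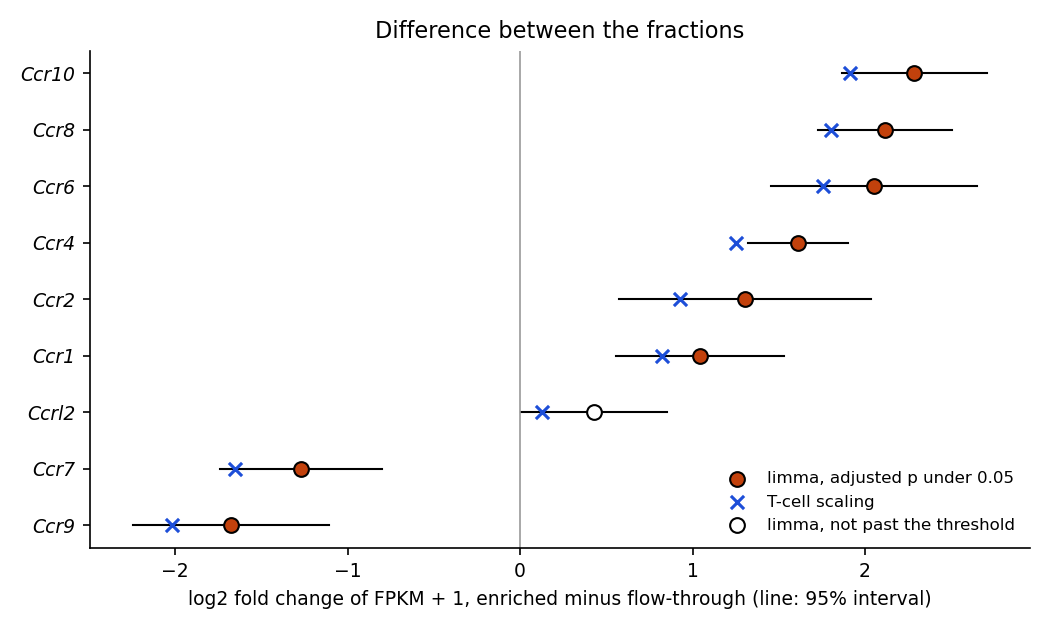
Log2 fold change of FPKM + 1 (enriched minus flow-through) of the 9 receptors with its 95% interval from limma, filled where the adjusted p was under 0.05, and the value after scaling each library to equal CD8 T-cell markers (cross). Each cross lies to the left of its circle, and the 6 higher and 2 lower calls stood on both scales.

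Exact two-sided permutation of the 8 libraries over the 70 arrangements, which ignores the pairing by mouse, gave p = 0.0286 for each of the 7 receptors without overlap. This is the smallest value these arrangements allow, and any gene without overlap reaches it. For Ccr2 and for Ccrl2 the same permutation gave p = 0.0571. Sign flips within the 4 mice, which keep the pairing, gave exact p = 0.125, the smallest possible, for each of the 9 receptors. A second scale was set by making the mean log2 level of the 10 CD8 T-cell markers equal in all libraries. Only Cd8a and Cd8b1 of the 10 encode CD8 chains, and the rest are not particular to CD8 T cells. Cd5 and Zap70 were themselves called higher (limma adjusted p = 0.03 and 0.026). On this scale the all-gene median went from -0.02 to -0.37 and the share of higher genes among all calls from 50.8% to 25.3%. It called 531 of the 12166 genes tested higher and 1568 lower. The receptors again gave 6 calls higher and 2 lower, with log2 fold changes of 1.91 for Ccr10, 1.81 for Ccr8, 1.75 for Ccr6, 1.25 for Ccr4, 0.93 for Ccr2, 0.82 for Ccr1, 0.13 for Ccrl2, -1.66 for Ccr7 and -2.02 for Ccr9.

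The makeup of the receptor pool does not depend on the scale of a library, since each receptor is given as a share of the summed FPKM of all 9. Ccr7 made up 56.0, 52.8, 58.4 and 59.6% of the sum in flow-through libraries, against 17.6, 14.2, 17.0 and 16.7% in the enriched libraries. Its share dropped from 56.7 ± 3.01% to 16.4 ± 1.48%, a difference of -40.3 percentage points, in every mouse (exact permutation p = 0.0286, the smallest possible). The flow-through libraries, unlike in FPKM, lay close together. Ccr10 took the opposite course, from 7.80 ± 1.19% to 28.8 ± 5.78%, and Ccr2 went from 16.3 ± 3.77% to 29.1 ± 5.20%. Ccr9 made up 10.2 ± 0.910% and 1.98 ± 0.463%. Ccr4, Ccr8 and Ccr6 together with Ccr1 held small shares of the flow-through sum, 4.11, 1.43, 1.28 and 0.507%, and 9.65, 5.87, 5.33 and 1.22% of the enriched sum, while Ccrl2 had 1.63 ± 0.494% and 1.69 ± 0.496%. The summed level itself was 165 ± 48.0 FPKM in the flow-through, against 226 ± 17.3 FPKM in the enriched libraries (exact permutation p = 0.0571), and without Ccr7 it was 71.7 ± 22.7 and 189 ± 17.3 FPKM (p = 0.0286 by the same exact permutation test).

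**Figure D3:**
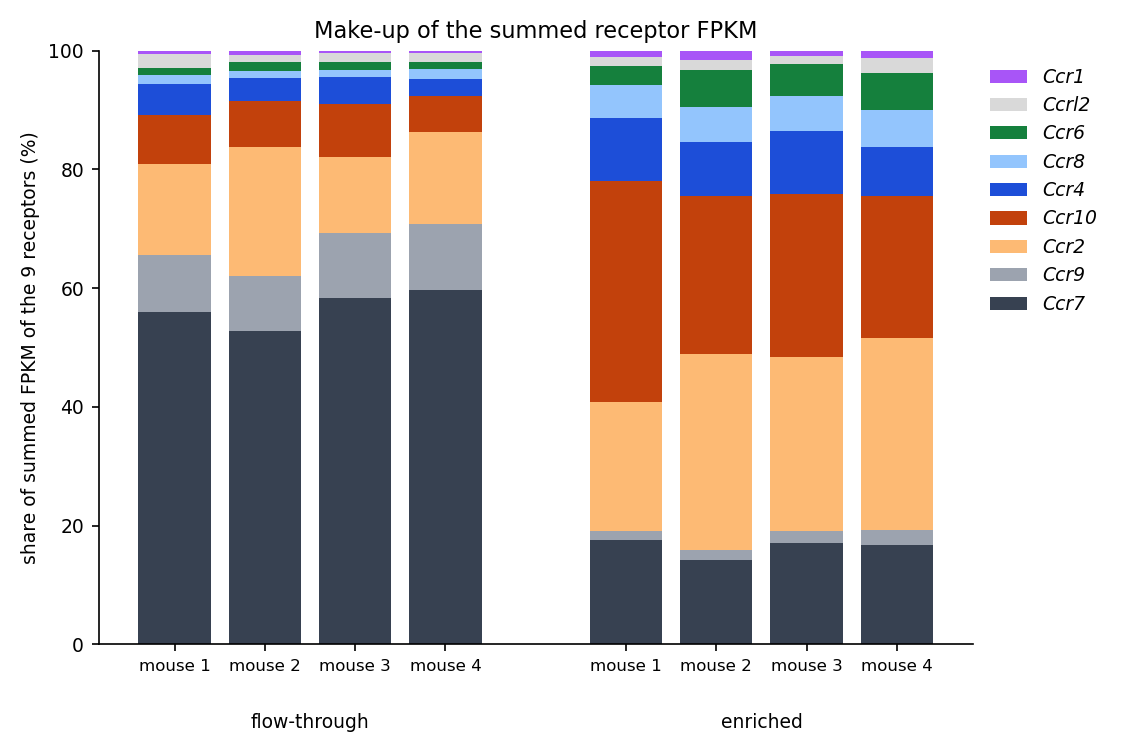
Share (%) of each receptor in the summed FPKM of the 9 receptors, as stacked bars for the flow-through and enriched library of mice 1 to 4. Ccr7 fills 52.8 to 59.6% of each flow-through bar and 14.2 to 17.6% of each enriched bar.

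The receptors also changed places in the order of their levels. In the flow-through it ran Ccr7, Ccr2, Ccr9, Ccr10, Ccr4, Ccrl2, Ccr8, Ccr6 and Ccr1, from high to low mean FPKM. Between neighbours, the library ranges were separate only for Ccr7 over Ccr2, Ccr10 over Ccr4 and Ccr4 over Ccrl2, and Ccrl2, Ccr8 and Ccr6 did not differ beyond their spread. In the enriched libraries the order was Ccr2, Ccr10, Ccr7, Ccr4, Ccr8, Ccr6, Ccr9, Ccrl2 and Ccr1. Ccr2 and Ccr10 overlapped at the top, as did Ccr8 and Ccr6, and Ccr10 over Ccr7, Ccr7 over Ccr4, Ccr4 over Ccr8 and Ccr6 over Ccr9 were separate in range. The FPKM of Ccr7 was 6.56 to 9.71 times that of Ccr10 in the flow-through libraries and 0.473 to 0.697 times in the enriched libraries. The FPKM of Ccr9 was 1.87 to 3.85 times that of Ccr4 in the flow-through and 0.148 to 0.317 times in the enriched libraries.

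Of the 9 genes, 6 lie on chromosome 9 (mm10), Ccrl2 and Ccr4 apart from the others, Ccr8 at chr9:120092114-120094906, and Ccr9, Ccr1 and Ccr2 within one stretch, with 177794 bases between Ccr9 and Ccr1 and 133258 bases between Ccr1 and Ccr2. Ccr9 fell while Ccr1 and Ccr2 rose. Xcr1, a chemokine receptor of cross-presenting dendritic cells that lies between Ccr9 and Ccr1, 100095 bases from Ccr1, rose from 0.688 ± 0.350 to 4.75 ± 1.38 FPKM (log2 fold change 1.76, limma adjusted p = 0.0017). Cx3cr1, a receptor of effector T cells and monocytes whose gene lies 22235 bases from Ccr8, rose from 7.95 ± 1.36 to 17.2 ± 2.61 FPKM (log2 fold change 1.02, limma adjusted p = 0.0021). Ccr7 lies on chromosome 11, far from Ccr10, and Ccr6 on chromosome 17 (chr17:8236043-8257141), where Fgfr1op on one side was lower (log2 fold change -0.44, limma adjusted p = 0.013) and Mpc1 on the other was not called (-0.17, limma adjusted p = 0.22).

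Upstream sequence is shown for the 3 skin and mucosal receptors with a RefSeq promoter entry that rose, and for Ccr9, which fell. These are the 250 bases before the RefSeq start (GRCm38.p6, the mm10 build), written 5′ to 3′ on the strand of the gene, with capitals where a searched motif matched on either strand.
Ccr4, chr9:114496545-114496794 (- strand): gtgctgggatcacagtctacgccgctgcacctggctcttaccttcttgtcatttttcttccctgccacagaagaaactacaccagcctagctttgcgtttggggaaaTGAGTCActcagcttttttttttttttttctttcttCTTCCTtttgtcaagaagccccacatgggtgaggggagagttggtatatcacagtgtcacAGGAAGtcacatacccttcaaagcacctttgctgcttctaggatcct
Ccr6, chr17:8235793-8236042 (+ strand): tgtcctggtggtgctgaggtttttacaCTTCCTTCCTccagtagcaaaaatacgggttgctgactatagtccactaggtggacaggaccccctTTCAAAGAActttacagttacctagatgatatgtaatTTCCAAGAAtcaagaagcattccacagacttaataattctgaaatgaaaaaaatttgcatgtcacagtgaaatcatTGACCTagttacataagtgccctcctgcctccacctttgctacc
Ccr8, chr9:120091883-120092132 (+ strand): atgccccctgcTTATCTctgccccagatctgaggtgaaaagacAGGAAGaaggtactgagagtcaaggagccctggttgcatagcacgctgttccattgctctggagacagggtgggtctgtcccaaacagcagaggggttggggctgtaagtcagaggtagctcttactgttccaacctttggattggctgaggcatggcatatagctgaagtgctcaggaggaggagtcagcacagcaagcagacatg
Ccr9, chr9:123766961-123767210 (+ strand): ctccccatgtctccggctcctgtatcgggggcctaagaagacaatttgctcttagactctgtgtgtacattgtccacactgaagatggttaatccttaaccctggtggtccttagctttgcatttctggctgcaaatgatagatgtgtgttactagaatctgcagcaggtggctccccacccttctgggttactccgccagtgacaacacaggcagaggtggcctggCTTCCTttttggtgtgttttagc
In the search the T-box motif was written TCACACC, while the ROR motif was written AGGTCA. For AP-1 the letters were TGANTCA, and for GATA factors they were AGATAA. The ETS motif was given as AGGAAG, that of STAT factors as TTCNNNGAA and that of KLF factors as CCACACCC, all on both strands. Of the 9 receptors, 7 had an entry, with 10 windows in all. The Ccr6 window shown held 1 ROR match, 44 bases before the start, 2 STAT matches and 2 ETS matches that overlap by 2 bases. The other Ccr6 window, not shown, held 1 match, for GATA, and none for ROR. The Ccr4 window held 1 AP-1 and 2 ETS matches, that of Ccr8 1 GATA and 1 ETS match, and that of Ccr9 1 ETS match. Such matches are common: among 32851 promoter windows, 14.0% held the ROR letters, 6.75% AP-1, 9.99% GATA, 29.5% ETS, 7.02% STAT, 3.33% T-box and 3.20% KLF. They are letters in a window and not sites shown to be bound, and the start of the Ccr4 window was not that of any GENCODE transcript. That of the Ccr8 window was not either. The only GENCODE transcript of Ccr8 begins at chr9:120092114, inside the bases shown.

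The ligands, partners and signal transducers of the receptors were then examined in lists. Of 21 CC chemokine ligands, 9 passed the filter, 5 were higher and none lower, with a median log2 fold change of 0.80, and 6 were listed at 0 in every library. Ccl1, the ligand of Ccr8, was at 1.08, 3.07, 1.77 and 2.49 FPKM in the flow-through and at 10.1, 11.4, 8.90 and 9.83 FPKM in the enriched libraries (log2 fold change 1.87 with an SE of 0.20, limma adjusted p = 0.00091), so receptor and ligand were both higher in the same fraction. Ccl6 had a log2 fold change of 1.47 (limma adjusted p = 0.017), Ccl3, a ligand of Ccr1, of 1.12 (0.031), and Ccl4 of 1.05 (0.033). Ccl5, another ligand of Ccr1 and by far the most abundant of the list, went from 459 ± 141 to 781 ± 134 FPKM (limma adjusted p = 0.03). Among the ligands at 0 were Ccl19 and Ccl20, those of Ccr7 and Ccr6. These ligand calls were fragile: their count was 3 without flow-through replicate 1, 2 without flow-through replicate 3 or enriched replicate 2, 1 without enriched replicate 4, and 3 on the CD8 T-cell scale. With the mouse as a block the count was 6. Of the 4 atypical chemokine receptors, only Ackr1 was tested, and it was not called (log2 fold change -0.14).

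Of 25 genes of receptor signal transduction, all were tested, 12 were higher and 1 was lower, with a median log2 fold change of 0.43. Gng2, a G-protein γ subunit, went from 30.9 ± 4.75 to 67.8 ± 4.74 FPKM (log2 fold change 1.12, limma adjusted p = 0.00094), and Pik3cg, the lipid kinase that G proteins activate, had a log2 fold change of 0.85 (0.0022). Rgs3, which ends G-protein signals, rose by 0.83 (0.0094), and Elmo1, a partner of the Rac activator Dock2, by 0.73 (0.019). Rgs10, of the same family as Rgs3, was the one lower gene, from 109.6 ± 6.27 to 71.4 ± 4.51 FPKM (log2 fold change -0.61, limma adjusted p = 0.0015), and the arrestin Arrb2 was at 103 ± 22.8 and 138 ± 6.14 FPKM (0.45, not called at 0.058, but called at 0.018 with the mouse as a block). The count of higher genes was 7 without flow-through replicate 3, enriched replicate 2 or enriched replicate 4, 19 with the mouse as a block and 1 on the CD8 T-cell scale, on which the calls of Pik3cg, Rgs3 and Elmo1 were lost (limma adjusted p = 0.059, 0.054 and 0.11). With the mouse as a block, 3 genes of the list were lower. Among the 12166 genes tested, the block called 22.2% higher and 22.7% lower. The CD8 T-cell scale called 531 of them higher and 1568 lower.

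Partners of skin homing, the enzymes and carrier of the selectin ligands, had 2 of 5 genes higher and none lower, with a median log2 fold change of 0.52. Fut7, the fucosyltransferase that completes the selectin ligand, was at 8.37, 21.7, 12.4 and 13.6 FPKM in the flow-through and at 41.9, 39.8, 34.3 and 44.3 FPKM in the enriched libraries, without overlap (log2 fold change 1.52 with an SE of 0.24, limma adjusted p = 0.0035). Gcnt1, which builds the branch that carries it, had a log2 fold change of 0.91 (limma adjusted p = 0.0014, but 0.14 on the CD8 T-cell scale), and Selplg, the carrier protein, of 0.41 (0.10, not called, but 0.031 with the mouse as a block). Among 4 gut homing partners, Gpr15, a receptor for homing to the large intestine, rose by a log2 fold change of 1.49 (limma adjusted p = 0.0054), and the integrin chains Itgae and Itgb7 by 0.92 (0.0083) and 0.83 (0.0094), while Itga4 fell by 0.65 on the log2 scale (0.0076). Gpr15 and Ccr9, both known from gut homing, went opposite ways.

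Of the 5 genes of lymph node entry and exit, Itgal, a chain of LFA-1, was higher (log2 fold change 1.07, limma adjusted p = 0.0046). Of 11 transcription factors known from T-cell homing programs, 8 were higher and 2 lower, with a median of 1.10. Among them were Tbx21, the effector factor T-bet, with 1.70 (limma adjusted p = 0.00065), Rora with 1.63 (0.0014) and Gata3 with 1.31 (0.0024). Bach2 (-1.11, 0.044) and Lef1 (-0.75, 0.028), factors of naive and resting T cells, were lower, but both calls were lost when any library other than flow-through replicate 1 was left out.

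**Figure D4:**
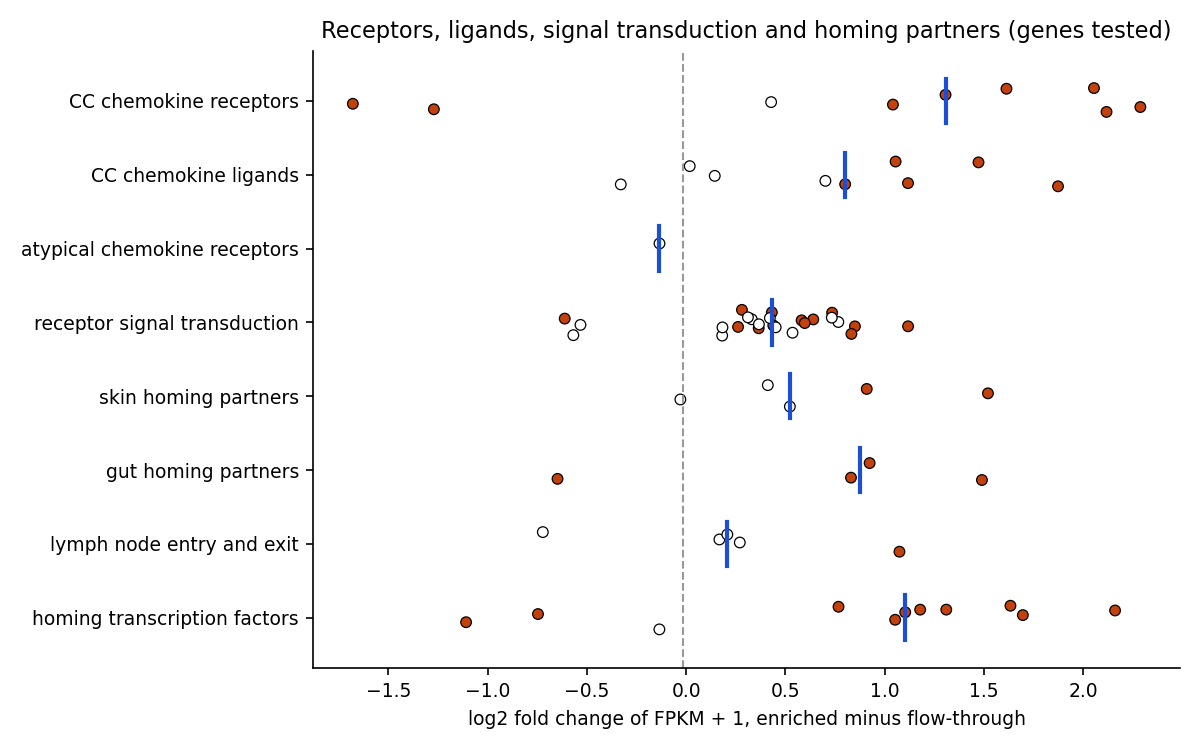
Log2 fold change of FPKM + 1 (enriched minus flow-through) of every tested gene of the receptor, ligand, signal transduction and homing lists, filled where the limma adjusted p was under 0.05. Blue bars mark list medians, 1.31 for the receptors, and the dashed line marks the median of all genes tested, -0.02.

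The remaining marker lists moved in both directions. Neutrophil markers had no call in 5 tested, with sums of 390 to 2268 FPKM in the flow-through against 418 to 2685 FPKM in the enriched libraries, and eosinophil markers had none in 3. Of the basophil and mast-cell markers Mcpt8 was higher and Kit lower, and of the erythroid markers Car1 was lower, in sums of 847 to 2663 and 198 to 1364 FPKM. With the mouse as a block, which called 22.2% of all genes tested higher and 22.7% lower, more markers were called. The erythroid list then had 5 calls lower, the neutrophil list 3 higher and 1 lower, and the eosinophil list 3 lower. The block gave 7 calls higher for CD4 and regulatory T cells, 6 for γδ and type 17 T cells and 3 for basophils and mast cells. It gave 2 higher each for B cells and for plasmacytoid dendritic cells. Of 5 melanoma markers 4 were at 0 in every library. The part of these cells in the receptor levels was not tested.

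**Figure D5:**
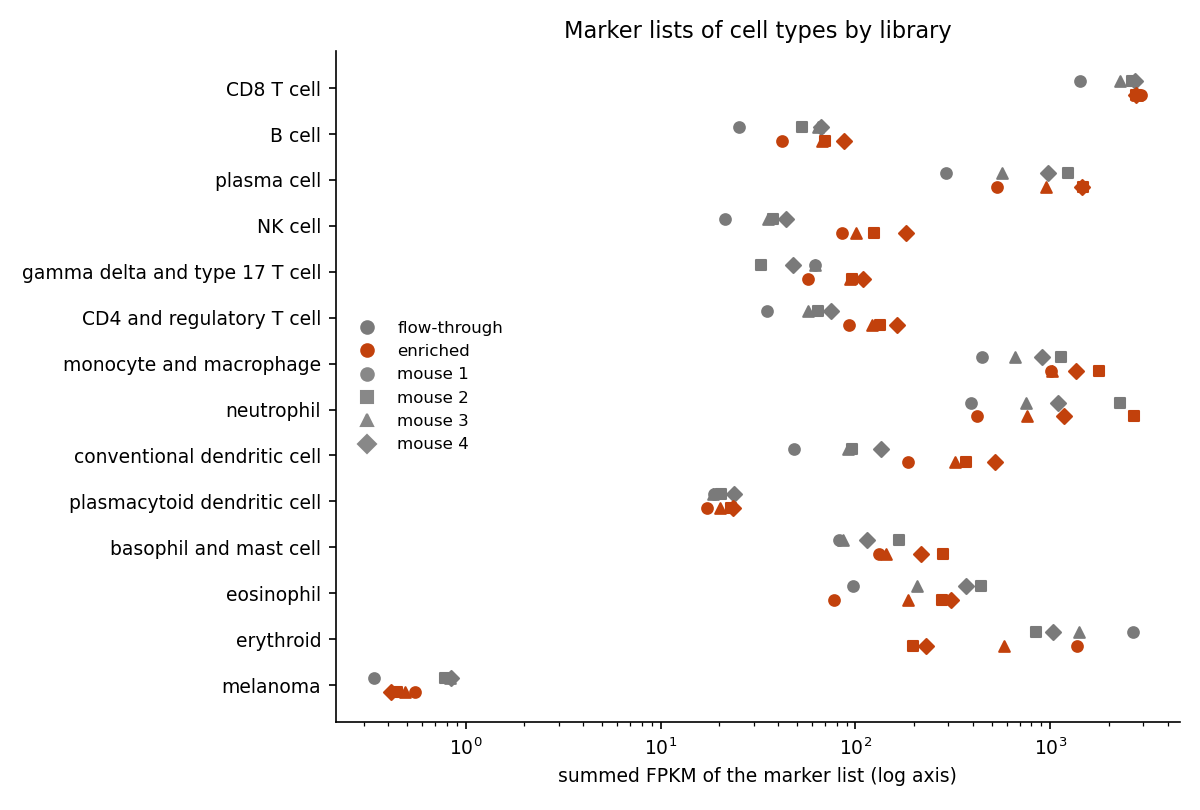
Summed FPKM (log axis) of the markers of each cell type in the flow-through (grey) and enriched (orange) libraries, with a symbol for each mouse. Flow-through replicate 1 is the lowest library for CD8 T cells at 1426 FPKM and the highest for erythroid cells at 2663 FPKM, and the fractions are apart for CD8 T cells, NK cells, conventional dendritic cells and CD4 and regulatory T cells.

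Finally, the genes whose pattern over the 8 libraries was closest to each receptor were listed by the root mean square difference of centred log2 values, in which 0 is an identical pattern, over 9328 or 9329 genes averaging 5 FPKM or more. Adam8, a surface metalloprotease, was among the 3 genes nearest to Ccr6 (0.23) and among the 3 nearest to Ccr8 (0.16), and Il18r1 itself was another of those nearest to Ccr8 (0.18). Ccr4 lay closest to Il9r, Rxra and Icos (0.10 to 0.11), a cytokine receptor, a nuclear receptor and a costimulatory receptor. For Ccr10 the nearest were S100a4, Cd40lg and Hrh4 (0.12 to 0.16), of which the study had named Cd40lg and Hrh4 as higher in these same libraries. Ccr2 was nearest to Fgl2, Pld4 and Tgfbi (0.12 to 0.15) and Ccr1 to Cx3cr1, Cd68 and Arsb (0.14 to 0.17), among them the macrophage marker Cd68. Ccr7 had Dapl1, Scin and Pik3ip1 as its nearest genes (0.10 to 0.14), Ccr9 had Tmie, Gm14085 and Slc6a19 (0.16 to 0.18), and Ccrl2 had Phldb3, Hdac5 and Trex1 (0.13 to 0.16). Among the receptors, the closest pairs were Ccr6 with Ccr8 and Ccr7 with Ccr9 (0.26 each). All these patterns are led by the difference between the fractions.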

How the data were processed

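The authors discarded reads of low quality, mapped the rest to mm10 with TopHat and computed gene levels with Cufflinks 2.1.1, with corrections for multi-mapped reads and fragment bias and other options at default (tools and build also per the submitters' processing notes). The deposited values are FPKM, 1 column for each of 8 libraries made from poly(A) RNA with a stranded kit. Whether the strand was used, and the annotation release, were not given in the sources used here.

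The fractions were compared by limma 3.58.1 (R 4.3.3) with a variance trend on log2(FPKM + 1), for genes averaging 1 FPKM or more, with Benjamini-Hochberg adjustment and a threshold of 0.05, after a check on simulated data. Fold changes on this scale understate those of low genes. FPKM hold no exact depth, so no counting interval is given. Replicate numbers pair the fractions of a mouse. The deviations of same-numbered libraries correlated at 0.31 to 0.66 and those of other numbers at -0.6 to 0.41, so the ranges overlapped. Values with the mouse as a block are given for receptors and some listed genes where they change a call, and as counts for some lists. Names and positions came from GENCODE M21, which held 99.1% of the identifiers, and upstream sequences from RefSeq. Alternatives covered pseudocount, filter, scaling, variance trend, block, and leaving out libraries or mice.

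Named genes were the 9 receptors, up to 4 called genes per list with the largest fold change and abundant uncalled ones, the 3 genes closest in pattern to each receptor, neighbours, and Il18r1. Some ligands, markers and Ackr1 were named after their values were seen. The receptors and lists were chosen with earlier results of these data known. Results of some named genes are not reported here.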

Additional observations from a re-analysis of the deposited data

Results flagged for a closer look

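The enriched library of mouse 4 had a Ccr4 level of 19.8 FPKM, far below the other 3 enriched libraries (22.1 to 22.5 FPKM) for so narrow a group: its gap to the nearest was 0.84 of the whole range, above the critical value of Dixon's test for 4 samples at the 95% level. It was still above every flow-through library. With 20 groups of 4 examined, 1 such value is what chance gives.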

How the results depend on the processing

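Of 187 values of the 9 receptors under alternative settings, 178 kept their direction and their side of the threshold, 8 lost the call and 1 gained it (Ccrl2 with the replicate block, adjusted p = 0.044). Log2 fold changes ranged from 1.91 to 2.41 for Ccr10, 1.81 to 2.50 for Ccr8, 1.75 to 2.46 for Ccr6, 1.25 to 1.74 for Ccr4, 0.93 to 1.57 for Ccr2, 0.82 to 1.68 for Ccr1, -1.66 to -1.15 for Ccr7 and -2.02 to -1.55 for Ccr9. A filter at 5 FPKM left out Ccr1 and Ccrl2. Without 1 library, the count of lower receptors stayed at 2. Without both libraries of mouse 3, which leaves 6 libraries, 1 receptor was lower (Ccr9 at adjusted p = 0.044, while Ccr7 lost its call at 0.051) and 4 were higher, since Ccr1 (0.056) and Ccr2 (0.12) lost their calls, as they did without mouse 4 (0.065 and 0.081). The drop of the Ccr7 share was -40.3 points under sign flips of the 4 mice, the replicate block of that value (exact p = 0.125, the smallest possible), and -41.6 to -39.3 points with a library or mouse left out, where without a mouse the smallest possible exact p is 0.1. Over all genes, 1720 were higher and 1664 lower. The replicate block gave 2705 and 2763, and scaling to CD8 T-cell markers gave 531 and 1568. Leaving out a library or a mouse gave 447 to 1813 higher and 292 to 1780 lower. The cause of these shifts was not tested. For genes of low level, such as Ccr1, precision is limited by few fragments.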
